A study of Mus musculus with 24 samples.

Results

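Neuro2A cells that had been transfected with a plasmid encoding HiFi-RfxCas13d and a non-targeted (NTG) crRNA were compared with untransfected Neuro2A cells, in 3 libraries of each group out of the 24 libraries of the series. Neuro2A is a mouse neuroblastoma line, labelled here as wild-type neuroblasts. HiFi-RfxCas13d, also named RfxCas13d-N2V7, is a high-fidelity variant of the RNA-targeting nuclease RfxCas13d; in the study's plasmids the CAG promoter drives the effector and a U6 promoter the crRNA. The transfected cells were collected 48 hr after lipid transfection, the cultures were kept in serum-containing DMEM, and the libraries of a group are described as independent biological replicates. Both other NTG arms of the series, RfxCas13d NTG and DiCas7-11 NTG, were used to ask which differences were shared with another effector, and the HiFi-RfxCas13d arm with the mATXN2-targeting crRNA and the cells given an ASO against ataxin-2 are given beside them where they bear on a value. The column heads of the deposited table abbreviate the NTG libraries as EV, whereas the labels give a non-targeted crRNA, and the labels were followed. Nothing states that the untransfected cells received lipid or plasmid without an effector, so lipid, plasmid DNA, effector protein and crRNA cannot be told apart as sources of a difference between these groups.

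Mammalian cells carry receptors for foreign nucleic acid. Double-stranded RNA is detected in the cytosol by RIG-I (Ddx58) and MDA5 (Ifih1), which act through MAVS, and DNA by cGAS, which acts through STING. Both routes activate IRF3 and TBK1, which induce type I interferon and a first set of antiviral genes, and interferon receptors then use JAK kinases, STAT proteins and IRF9 to induce a larger set through the interferon-stimulated response element (ISRE). Neuroblastoma cells also express neuronal cytoskeletal and secretory genes, actin regulators, glycolytic enzymes and the ID proteins, which are inhibitors of basic helix-loop-helix transcription factors and textbook targets of BMP signalling.

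The total count was 15491949 to 17930585 per HiFi-RfxCas13d NTG library and 12665725 to 16813658 per untransfected library. Of 13901 genes tested, 1437 were higher in HiFi-RfxCas13d NTG (10.3% of those tested) and 1475 were lower (10.6%) at an adjusted p under 0.05 in edgeR's quasi-likelihood test with Benjamini-Hochberg adjustment, and the median log2 fold change over all tested genes was -0.0054. Most of these differences were small. Among the 2912 called genes the absolute log2 fold change had a median of 0.21, 1835 changed by less than 0.25 on that scale, and 66 genes rose and 42 fell by more than 1. Ataxin-2 itself (Atxn2), which the NTG crRNA does not target, was at 123, 125 and 121 CPM (counts scaled to the effective library size) in the untransfected libraries and at 123, 112 and 123 CPM in HiFi-RfxCas13d NTG; the groups overlapped, and the log2 fold change was -0.049 ± 0.037 (SE; edgeR adjusted p = 0.376). Because CPM does not correct for transcript length, levels are compared below between libraries of the same gene and never between genes. Each value is an average over all cells of a culture, in which fewer expressing cells and less RNA per cell cannot be told apart, as cannot cells that took up plasmid and cells that did not.

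**Figure D1:**
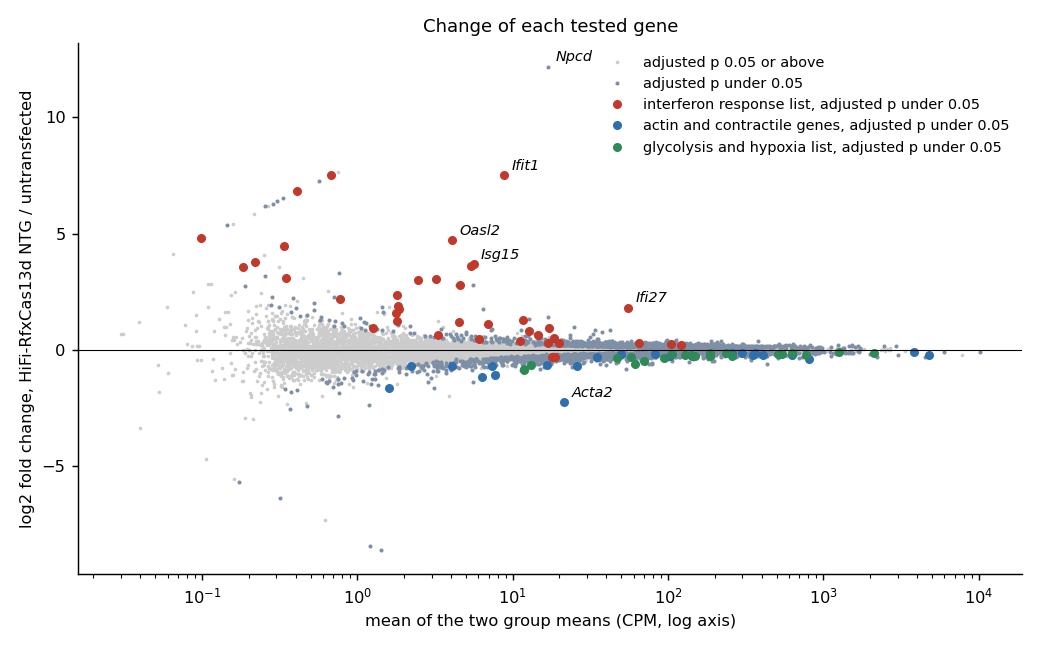
Change of each of the 13901 tested genes. The x axis is the average of the group means of HiFi-RfxCas13d NTG and untransfected cells in CPM on a log axis, the y axis is the log2 fold change, and each point is a gene, coloured where it belongs to one of 3 lists and has an adjusted p under 0.05. Apart from Npcd, whose reads are uncertain, the labelled rises belong to interferon-response genes such as Ifit1 at 7.50, and Acta2 at -2.25 is the lowest of the labelled genes; points on the rising line at the left are genes with no count in any untransfected library, for which the fitted value is no measure of size.

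The promoters of interferon-induced genes are shown first, since such genes were among the strongest rises. The 5 windows are hand-picked examples that all hold a match to the ISRE core, whereas most windows of such genes do not, as counted after them. Each line gives the 250 bases before the RefSeq start site on build GRCm38.p6, 5′ to 3′ on the strand of the gene. Capitals mark every match to the ISRE core GAAANNGAAA on either strand, where the reverse strand reads TTTCNNTTTC and matches may overlap one another.
Ifit1 (chr19:34640639-34640888, plus strand): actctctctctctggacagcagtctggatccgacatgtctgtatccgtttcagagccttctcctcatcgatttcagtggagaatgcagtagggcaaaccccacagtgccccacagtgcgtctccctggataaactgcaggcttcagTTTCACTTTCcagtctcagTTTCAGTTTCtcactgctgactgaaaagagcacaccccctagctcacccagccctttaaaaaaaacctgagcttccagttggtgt
Isg15 (chr4:156200819-156201068, minus strand): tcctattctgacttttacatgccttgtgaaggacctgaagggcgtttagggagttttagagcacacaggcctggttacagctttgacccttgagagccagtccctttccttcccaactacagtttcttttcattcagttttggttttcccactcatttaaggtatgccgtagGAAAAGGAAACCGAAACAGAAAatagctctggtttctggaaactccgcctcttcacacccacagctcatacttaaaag
Rsad2 (chr12:26456453-26456702, minus strand): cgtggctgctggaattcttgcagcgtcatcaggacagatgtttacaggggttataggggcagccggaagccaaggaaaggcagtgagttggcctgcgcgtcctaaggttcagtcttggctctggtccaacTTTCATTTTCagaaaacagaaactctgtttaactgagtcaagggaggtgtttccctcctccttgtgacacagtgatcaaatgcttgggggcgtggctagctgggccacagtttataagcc
Cxcl10 (chr5:92348890-92349139, minus strand): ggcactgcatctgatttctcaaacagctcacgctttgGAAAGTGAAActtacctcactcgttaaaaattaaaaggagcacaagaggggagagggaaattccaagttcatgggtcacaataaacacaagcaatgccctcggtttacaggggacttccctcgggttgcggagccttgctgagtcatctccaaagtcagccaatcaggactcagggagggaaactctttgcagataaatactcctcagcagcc
Oas1a (chr5:120907526-120907775, minus strand): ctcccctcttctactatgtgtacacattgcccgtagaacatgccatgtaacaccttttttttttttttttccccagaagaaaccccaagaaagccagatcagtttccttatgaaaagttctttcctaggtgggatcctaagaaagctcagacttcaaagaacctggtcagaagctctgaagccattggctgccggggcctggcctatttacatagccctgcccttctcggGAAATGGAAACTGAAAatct
The Ifit1 window held 2 matches, the Isg15 window 3 that overlap, Rsad2 and Cxcl10 1 each, and Oas1a 2 that overlap. Over all 27025 genes with such a window, 936 (3.46%) held at least 1 match. Of the 59 interferon-response genes tested, 46 had a window, and 15 of these (32.6%) held a match. Matches were present in 12 of the 28 members that were higher in HiFi-RfxCas13d NTG (42.9%) and in 3 of the 18 that were not (16.7%). The windows of Oasl2, Ddx58, Irf7 and Irf9 held none. A match is a description of the letters and does not show that a factor was bound.

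Interferon-induced effectors rose together in HiFi-RfxCas13d NTG. Of 44 listed effectors, 40 were tested. By edgeR 31 rose and 0 fell, against 10.3% and 10.6% of all tested genes, and the median log2 fold change of the 40 was 1.22. It was also 1.22 with the 3 effectors that had no count in untransfected cells set to a ratio over 3 counts in that group. The 9 that did not pass included the classical MHC class I genes H2-K1 and H2-D1, at log2 fold changes of 0.019 and -0.061, and the GTPases Mx1 and Igtp, at 0.57 and 0.66.

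Ifit1, which encodes a protein that binds viral RNA lacking normal cap methylation, was nearly silent in untransfected cells, at 0.0642, 0.120 and 0.0796 CPM, and stood at 18.6, 16.8 and 17.3 CPM in the 3 HiFi-RfxCas13d NTG libraries. These are 4 counts against 870, a ratio of 196 with a 95% counting interval of 76.3 to 722, and the fitted log2 fold change was 7.50 ± 0.28 (SE; edgeR adjusted p = 1.52e-17). Every transfected library was thus far above every untransfected library, and the transfected libraries lay close to one another.

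Isg15, a ubiquitin-like modifier attached to proteins during the antiviral response, was at 0.770, 0.959 and 0.637 CPM in untransfected cells and at 9.38, 11.0 and 10.8 CPM in HiFi-RfxCas13d NTG (log2 fold change 3.69 ± 0.19, SE, edgeR adjusted p = 2.90e-14). Rsad2, which encodes the antiviral enzyme viperin, was at 0.898, 0.779 and 0.796 CPM and at 11.3, 8.95 and 9.78 CPM (log2 fold change 3.59 ± 0.23, SE, edgeR adjusted p = 6.53e-12). For both genes the lowest transfected library was several times above the highest untransfected one. Oasl2, a member of the oligoadenylate synthetase family, was at 0.321, 0.30 and 0.239 CPM in untransfected cells, which is 3 to 5 counts per library, and at 9.51, 6.65 and 7.27 CPM in HiFi-RfxCas13d NTG (log2 fold change 4.71 ± 0.33, SE, edgeR adjusted p = 4.65e-11). Its relative Oasl1 was at 1.48, 0.959 and 1.04 CPM against 8.03, 9.28 and 6.60 CPM, with a log2 fold change of 2.78 ± 0.23 (SE). Cxcl10, a chemokine that attracts T cells, rose by 3.03 ± 0.26 from 0.642, 0.599 and 0.876 CPM to 4.60, 6.15 and 6.29 CPM.

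Several effectors that were already measurable in untransfected cells also rose without overlap of the groups. Ifi27, a mitochondrial interferon-induced protein, was at 26.4, 23.6 and 23.9 CPM and at 97.1, 88.2 and 73.7 CPM (log2 fold change 1.81 ± 0.13, SE, edgeR adjusted p = 1.14e-10). Ifitm3, which blocks the fusion of viruses with endosomes, was at 1.22, 0.659 and 1.43 CPM against 9.32, 6.54 and 6.97 CPM. Apol9a and Apol9b, a pair of near-identical apolipoprotein L genes whose reads may be divided uncertainly between them, rose by 2.77 and 1.75 on the log2 scale. Smaller rises were seen in Irgm1, an immunity-related GTPase (0.95 ± 0.11), Bst2, which tethers budding virions (0.65 ± 0.12), Psmb8, an immunoproteasome subunit (0.29 ± 0.059), and B2m, the light chain of MHC class I (0.20 ± 0.045). Among effectors with no count in any untransfected library, Gbp3, a guanylate-binding protein, had 1.29, 1.45 and 1.28 CPM in HiFi-RfxCas13d NTG, which is at least 20.1-fold higher than 3 counts over the untransfected group would give.

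Of 13 listed sensors and adaptors, 11 were tested. Of these 5 rose and 0 fell, against 10.3% and 10.6% of all tested genes. Ddx58, the gene of RIG-I, was at 7.63, 6.71 and 5.81 CPM in untransfected cells and at 19.5, 15.1 and 15.2 CPM in HiFi-RfxCas13d NTG (log2 fold change 1.29 ± 0.15, SE, edgeR adjusted p = 4.80e-07). Eif2ak2, the gene of the double-stranded RNA-activated kinase PKR, was at 61.1, 58.4 and 55.5 CPM against 75.1, 73.4 and 66.1 CPM (log2 fold change 0.29 ± 0.061, SE, edgeR adjusted p = 9.55e-04). Both groups of libraries were separate for each of these genes. Ifih1, the gene of MDA5, had no count in untransfected cells and 0.777, 1.01 and 0.672 CPM in HiFi-RfxCas13d NTG, at least 12.3-fold above 3 counts over the untransfected group. Dhx58 and Irf7, a regulator of RIG-I-like receptors and the transcription factor that amplifies interferon production, rose by 1.74 and 2.19 on the log2 scale. The log2 fold changes of cGAS (Cgas) at 0.33, Mavs at 0.10, Sting1 at -0.15 and Irf3 at 0.13 did not pass the test.

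Of 8 receptor and signalling genes, 1 rose (12.5%, near the 10.3% of all tested genes) and 2 fell (25%, against 10.6%). Irf9, a DNA-binding partner of STAT proteins, was at 4.30, 4.37 and 4.62 CPM in untransfected cells and at 9.90, 9.73 and 8.62 CPM in HiFi-RfxCas13d NTG (log2 fold change 1.09 ± 0.16, SE, edgeR adjusted p = 2.02e-05). The interferon receptor chain Ifnar2 and the kinase Tyk2 fell, with log2 fold changes of -0.29 and -0.32, and 0 of these 8 genes were lower when untransfected replicate 2 was left out. Interferon genes themselves were not detectable at this depth, apart from Ifnz: of 20 interferon ligand genes in the table, including Ifnb1, 19 had no count in any of the 24 libraries, and Ifnz reached at most 3 counts in 1 library. Of the macrophage and microglial markers Ptprc, Aif1, Itgam and Adgre1 had no count in the 6 libraries, and 7 of 12 were at 0 in all 6. The summed level of the list was 0.128 to 0.360 CPM in untransfected cells and 0.582 to 0.839 CPM in HiFi-RfxCas13d NTG, without overlap. These are few counts. The 1 member tested, Cd68, had 9 over the untransfected group and 17 over HiFi-RfxCas13d NTG, and did not pass. Csf1r reached at most 1 and 6 counts per library.

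**Figure D2:**
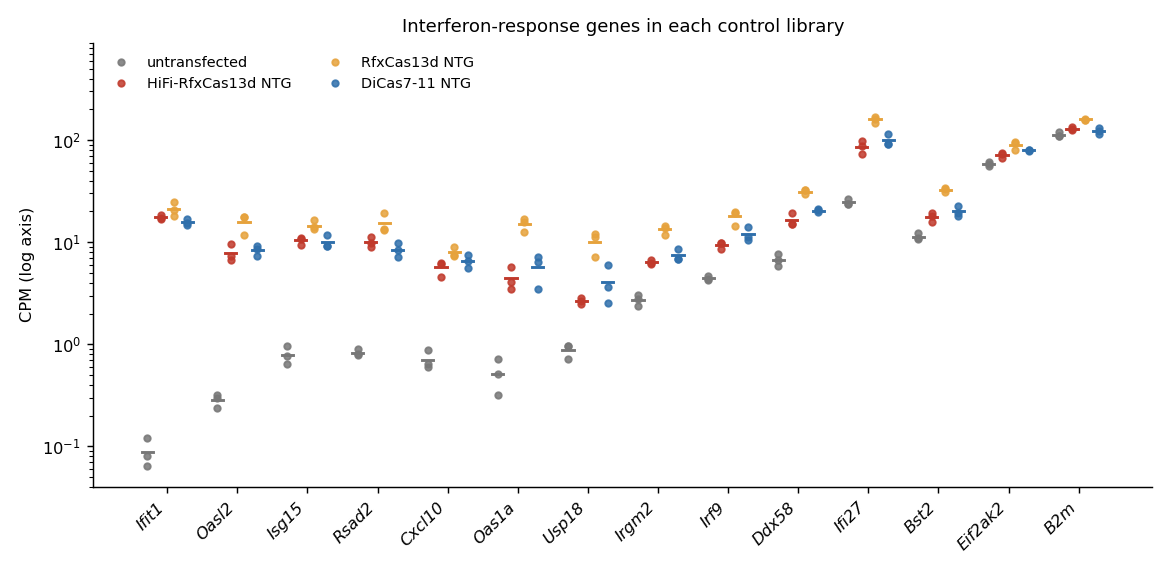
Level of 14 interferon-response genes in each control library. The y axis is CPM on a log axis, each point is 1 library, the short bars are group means, and colours mark the 4 groups of 3 libraries. In all 14 genes the HiFi-RfxCas13d NTG libraries sit above the untransfected ones, and for Usp18, Irgm2, Ddx58, Ifi27 and Bst2 they sit below the RfxCas13d NTG libraries.

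Many interferon-response genes were lower in HiFi-RfxCas13d NTG than in RfxCas13d NTG. In the direct comparison of both NTG arms, which does not use the untransfected libraries, 16 genes were higher in HiFi-RfxCas13d NTG (0.115% of those tested) and 70 lower (0.504%), and 25 of the 70 lower genes were on the interferon-response list (none of its members was higher). Among the 26 genes that were lower by more than 0.5 on the log2 scale, 17 were on that list. The median difference over its 59 tested members was -0.45. This count of list members was between 19 and 28 under every alternative computed, whereas the count of all genes that differ fell from 86 to 34 and 40 without HiFi-RfxCas13d NTG replicates 2 and 3 and to 46, 55 and 41 without RfxCas13d NTG replicates 1, 2 and 3.

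Usp18, a protease that removes ISG15 and dampens interferon receptor signalling, was at 2.46, 2.68 and 2.87 CPM in HiFi-RfxCas13d NTG, 11.2, 7.17 and 12 CPM in RfxCas13d NTG and 0.962, 0.959 and 0.717 CPM in untransfected cells. Its difference between the NTG arms was -1.92 ± 0.25 (SE; edgeR adjusted p = 2.89e-05), and the groups of libraries were separate at all 3 levels. Oas1a, an oligoadenylate synthetase that activates RNase L, was at 5.70, 4.08 and 3.48 CPM in HiFi-RfxCas13d NTG and 15.6, 12.5 and 16.8 CPM in RfxCas13d NTG (log2 difference -1.77 ± 0.25, SE, edgeR adjusted p = 8.79e-05). Irgm2, an immunity-related GTPase, was at 6.08, 6.76 and 6.23 CPM and 13.7, 11.8 and 14.5 CPM (log2 difference -1.07 ± 0.13, SE, edgeR adjusted p = 1.49e-05). None of these groups overlapped.

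Xaf1, an interferon-induced antagonist of inhibitors of apoptosis, was lower, at a log2 difference of -1.30 ± 0.28 (SE), with an edgeR adjusted p of 0.0217 that was above 0.05 without HiFi-RfxCas13d NTG replicate 2 or 3, without RfxCas13d NTG replicate 1 or 3 and with DESeq2 or limma-trend. Igtp, another immunity-related GTPase, was at 2.59, 2.52 and 1.89 CPM and 7.33, 3.55 and 6.29 CPM (log2 difference -1.29 ± 0.24, SE, edgeR adjusted p = 0.00408), and its edgeR adjusted p was 0.052 and 0.053 without HiFi-RfxCas13d NTG replicate 3 and RfxCas13d NTG replicate 1. Irf7, Ddx58, Irf9, Ifi27 and Bst2 were lower in HiFi-RfxCas13d NTG as well, with log2 differences of -1.76, -0.92, -0.93, -0.88 and -0.89. Ifit1 differed by -0.26 ± 0.10, which did not pass the test.

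Against DiCas7-11 NTG, none of the 59 interferon-response genes passed the edgeR test in either direction (0 also with DESeq2 and limma, and 10 at an unadjusted p under 0.05), and their median log2 difference was -0.13. Usp18 was at 5.92, 3.63 and 2.55 CPM in DiCas7-11 NTG, a log2 difference of -0.57 ± 0.28, and Ddx58 was at 21.1, 20.5 and 19.6 CPM, a difference of -0.31 ± 0.12; neither passed the test, and a p above the threshold does not show that the levels were alike. Compared with the same untransfected libraries, 37 of the 59 genes rose with HiFi-RfxCas13d NTG, 44 with RfxCas13d NTG, 42 with DiCas7-11 NTG and 35 with HiFi-RfxCas13d and the mATXN2-targeting crRNA; since these counts share their control libraries they are given side by side only. In the cells given the ASO, 30 rose, with Ifit1 at 1.69, 1.31 and 1.16 CPM and Isg15 at 1.04, 1.35 and 0.937 CPM.

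**Figure D3:**
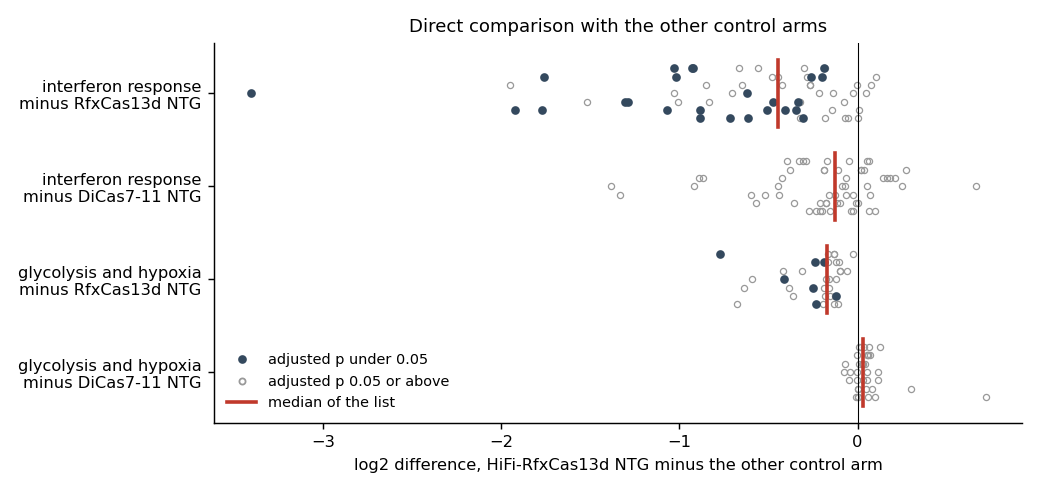
Log2 difference between HiFi-RfxCas13d NTG and each other NTG arm (x axis) for the tested members of the interferon-response list and of the glycolysis and hypoxia list. Each point is a gene, filled where the adjusted p is under 0.05, and red bars are list medians, which are -0.45 against RfxCas13d NTG and -0.13 against DiCas7-11 NTG for the interferon-response genes.

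Genes of the contractile cytoskeleton were among the largest falls. Acta2, smooth muscle alpha-actin, was at 37.1, 33.3 and 36.2 CPM in untransfected cells and at 7.05, 7.10 and 8.19 CPM in HiFi-RfxCas13d NTG, a log2 fold change of -2.25 ± 0.12 (SE; edgeR adjusted p = 7.59e-14). Myl9, a regulatory light chain of myosin, was at 8.60, 8.81 and 9.16 CPM against 3.43, 4.03 and 4.16 CPM (log2 fold change -1.19 ± 0.15, SE, edgeR adjusted p = 1.44e-06). Fblim1, a filamin-binding protein of cell junctions, was at 10.8, 9.29 and 11.4 CPM against 5.82, 4.25 and 4.64 CPM (log2 fold change -1.10 ± 0.14, SE, edgeR adjusted p = 2.59e-06). For each of these genes all transfected libraries were below all untransfected ones.

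The pattern prompted a list of 41 actin and contractile genes, chosen after the values were seen. Of 35 tested, 23 fell and 0 rose by edgeR, against 10.6% and 10.3% of all tested genes, with a median log2 fold change of -0.20. Of the cytoplasmic actins, Actb fell, with a log2 fold change of -0.10 ± 0.022, and Actg1 was at 5299, 5156 and 5152 CPM against 4480.4, 4440.1 and 4383 CPM, a log2 fold change of -0.23 ± 0.023. The crosslinker Flna (-0.38 ± 0.033), the adhesion protein Vcl (-0.28 ± 0.035) and calponin 2, Cnn2 (-0.69 ± 0.11), fell as well. The log2 fold changes of Srf and Mrtfa, the transcription factor of such genes and its actin-sensing cofactor, were -0.035 and -0.079 and did not pass. Acta2 stood at 8.58, 9.29 and 9.82 CPM in RfxCas13d NTG, 7.46, 8.21 and 5.91 CPM in DiCas7-11 NTG and 6.30, 4.84 and 5.58 CPM in the ASO group, and its direct differences to both other NTG arms did not pass the test. Of the 35 genes, 3 (Actg1, Fhl3 and Micall2) were lower than in RfxCas13d NTG, against 0.504% of all tested genes. In addition 2 (Actb and Ablim1) were higher than in DiCas7-11 NTG, also against 0.504%.

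Matrix and adhesion genes fell too. Of 33 listed, only 17 were tested. Of these 13 fell and 0 rose, against 10.6% and 10.3% of all tested genes, with a median log2 fold change of -0.32. Col4a2, a chain of basement membrane collagen, was at 408, 399 and 385 CPM in untransfected cells and 300.2, 282 and 292 CPM in HiFi-RfxCas13d NTG (log2 fold change -0.45 ± 0.029, SE, edgeR adjusted p = 8.40e-12). Lama5, a laminin chain, was at 49.4, 42.5 and 40.4 CPM against 27.3, 29.6 and 29.1 CPM (log2 fold change -0.62 ± 0.074, SE, edgeR adjusted p = 6.62e-07). Hspg2, the gene of perlecan, and Sparc, a secreted collagen-binding protein, fell, with log2 fold changes of -0.58 and -0.39. Col6a1 and Col1a1, which had few counts, fell, with log2 fold changes of -1.24 and -0.95. Counts per library of Col6a1 were 23 to 32 in untransfected cells and 8 to 17 in HiFi-RfxCas13d NTG. Those of Col1a1 were 17 to 21 and 9 to 13. Col1a1 was not called under 9 of 13 alternatives. Of the 17 matrix genes, 3 (Col4a2, Sparc and Loxl2) were lower than in RfxCas13d NTG, and Sparc was higher than in DiCas7-11 NTG. In each case 0.504% of all tested genes were. Of 10 fibroblast markers, which also include Col1a1, 3 were tested and 2 fell. The count of 2 was kept in 2 of 14 alternatives and was 0 to 1 with 1 library left out. Pdgfrb, at -0.38, was not called in 9 of 14. The summed level of the markers was 15.7 to 16.0 CPM in untransfected cells and 11.2 to 12.9 CPM in HiFi-RfxCas13d NTG. Col1a2, Thy1, Postn and Fap had no count in the 6 libraries, and the part of such cells in the falls was not tested.

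Glycolytic and hypoxia-induced genes were lower in HiFi-RfxCas13d NTG. Of 38 listed genes 36 were tested, with a median log2 fold change of -0.19. Of these 23 fell and 0 rose (edgeR), against 10.6% and 10.3% of all tested genes. Of 20 glycolysis genes 15 fell, and of 16 tested hypoxia-response genes 8 fell. Eno2, neuronal enolase, was at 83.5, 69.2 and 69.2 CPM in untransfected cells and at 51.5, 47.9 and 45.9 CPM in HiFi-RfxCas13d NTG (log2 fold change -0.61 ± 0.093, SE, edgeR adjusted p = 2.01e-05). Aldoc, aldolase C, was at 17.9, 13.5 and 14.4 CPM against 8.80, 7.55 and 8.80 CPM (log2 fold change -0.87 ± 0.13, SE, edgeR adjusted p = 2.20e-05), and Ankrd37, a HIF1 target, at 16.4, 15.2 and 13.9 CPM against 8.03, 7.60 and 10.1 CPM (log2 fold change -0.83 ± 0.16, SE, edgeR adjusted p = 3.81e-04). Falls of the abundant enzymes were smaller, such as -0.19 ± 0.051 for phosphoglycerate kinase (Pgk1), -0.19 ± 0.050 for Eno1 and -0.14 ± 0.029 for Gapdh. Values for Hif1a (0.047), Ldha (-0.022) and Vegfa (-0.026) did not pass.

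Part of this group also differed from RfxCas13d NTG in the direct test. Of its 36 tested genes, 7 were lower in HiFi-RfxCas13d NTG than in RfxCas13d NTG (0.504% of all tested genes were) and 0 were higher. With DESeq2 8 genes of the list differed and with limma 7. How this count moves with 1 library left out is not given here, and all differences to RfxCas13d NTG were then 34 to 85. Against DiCas7-11 NTG 0 passed with edgeR, DESeq2 or limma and 3 had an unadjusted p under 0.05. Ndrg1, a stress gene induced in hypoxia, was at 10.9, 8.89 and 10.9 CPM in HiFi-RfxCas13d NTG, 18.1, 17.8 and 16.5 CPM in RfxCas13d NTG and 17.1, 17.3 and 13.9 CPM in untransfected cells, with a log2 difference between the NTG arms of -0.77 ± 0.17 (SE; edgeR adjusted p = 0.0193). Pgk1 was at 478, 462 and 484 CPM against 541, 561 and 572 CPM in RfxCas13d NTG (log2 difference -0.24 ± 0.050, SE, edgeR adjusted p = 0.0191). For both genes the RfxCas13d NTG libraries lay within or just above the range of the untransfected ones. Compared with the shared untransfected libraries, 2 of the 36 fell in RfxCas13d NTG, 25 in DiCas7-11 NTG and 34 in the ASO group, where Eno2 was at 38.0, 31.5 and 31.9 CPM.

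The ID genes Id1, Id2, Id3 and Id4 rose. Id2 was at 7.83, 10.7 and 8.76 CPM in untransfected cells and at 24.7, 25.3 and 23.5 CPM in HiFi-RfxCas13d NTG (log2 fold change 1.42 ± 0.095, SE, edgeR adjusted p = 1.52e-11). Id3 was at 6.74, 6.89 and 8.20 CPM against 17.7, 19 and 18.2 CPM (log2 fold change 1.34 ± 0.11, SE, edgeR adjusted p = 5.06e-10), and Id1 was at 24.7, 25.7 and 24.8 CPM against 41.2, 41.4 and 38.9 CPM (log2 fold change 0.69 ± 0.068, SE, edgeR adjusted p = 2.79e-08). The transfected libraries were above the untransfected libraries for each of them. On a list of 32 BMP and SMAD genes chosen after the values were seen, 22 were tested, with a median log2 fold change of 0.12. Of these 9 rose (40.9%, against 10.3% of all tested genes), 3 fell (13.6%, near the 10.6% of all) and 10 did not pass. Besides the ID genes, the risers were Atoh8, a helix-loop-helix factor (0.83 ± 0.084), the inhibitory Smad7 (0.64 ± 0.085), Smad9 (0.43) and, by smaller amounts, Bmpr2 (0.13) and Smurf1 (0.12). Acvrl1, a type I receptor, fell, at -0.69. Id2 was at 20.1, 20.0 and 18.8 CPM in RfxCas13d NTG, 20.1, 21.5 and 23.7 CPM in DiCas7-11 NTG and 24.7, 21.1 and 25.5 CPM in the ASO group, and none of the 22 genes passed the direct test against either other NTG arm with edgeR, DESeq2 or limma (5 and 3 had an unadjusted p under 0.05).

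**Figure D4:**
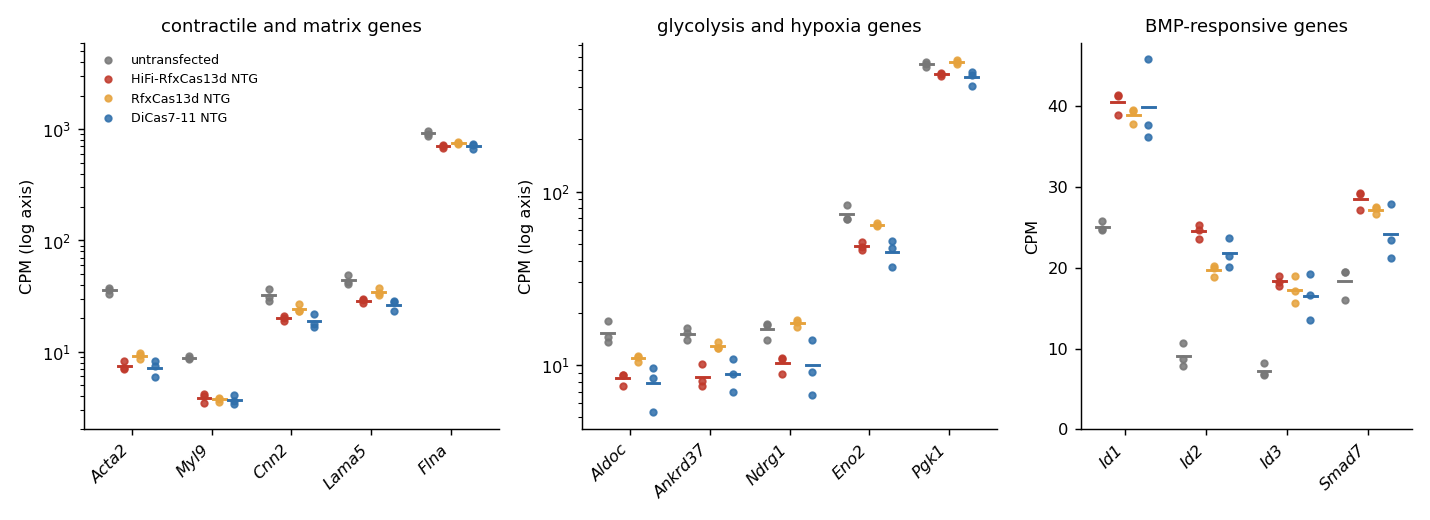
Level of contractile and matrix genes, glycolysis and hypoxia genes (CPM, log axes) and BMP-responsive genes (CPM, linear axis from 0) in each control library. Points are libraries, short bars are group means and colours mark the 4 groups; Acta2 lies between 7.05 and 8.19 CPM in HiFi-RfxCas13d NTG and between 33.3 and 37.1 CPM in untransfected cells.

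Genes of ribosomes and of RNA processing moved by small amounts in opposite directions. For the counts that follow, 10.3% of all tested genes were higher and 10.6% lower. Of 80 cytosolic ribosomal protein genes, all tested, 49 fell and 0 rose (29 of 47 large-subunit and 20 of 33 small-subunit genes fell), with a median log2 fold change of -0.080; 31 fell when untransfected replicate 2 was left out. Rpl10a, the largest fall, was at 562, 569 and 565 CPM against 462, 474 and 476 CPM (log2 fold change -0.26 ± 0.028, SE, edgeR adjusted p = 7.11e-08). These falls amount to a few percent in most members, and reads of ribosomal protein genes can be shared with their processed pseudogenes. SR proteins and hnRNPs, which regulate splicing, moved the other way: of 43 genes 22 rose and 1 fell (0 without HiFi-RfxCas13d NTG replicate 3), with a median of 0.086. Among them, Hnrnpdl was at 281, 272 and 284 CPM against 325, 324 and 334 CPM (log2 fold change 0.23 ± 0.030, SE, edgeR adjusted p = 2.59e-06). Of 37 genes of mRNA decay 11 rose and 0 fell (1 without HiFi-RfxCas13d NTG replicate 1), among them Smg6, a factor of nonsense-mediated decay, at 0.35. Of 20 cytosolic aminoacyl-tRNA synthetases 8 rose, and Qars fell, at -0.23.

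**Figure D5:**
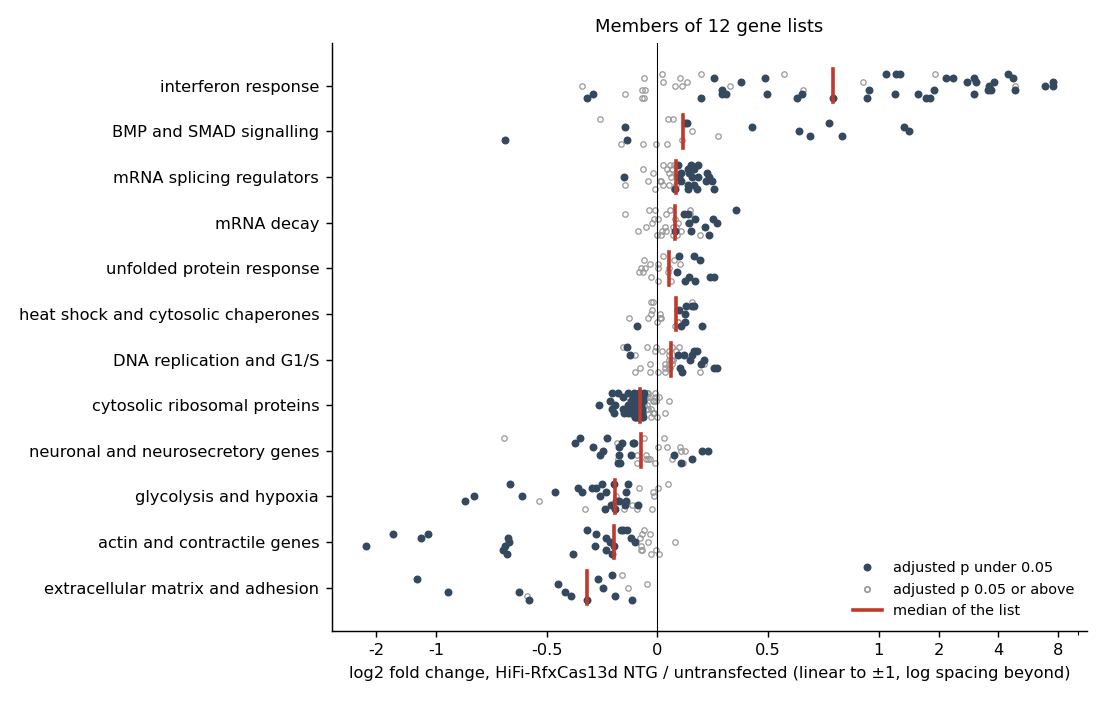
Log2 fold change of HiFi-RfxCas13d NTG to untransfected cells (x axis, linear between -1 and 1 and log-spaced beyond) for the tested members of 12 gene lists. Filled points have an adjusted p under 0.05, open points do not, and red bars are list medians, which run from 0.79 for the interferon response to -0.32 for extracellular matrix and adhesion; the actin and BMP lists were chosen after the values were seen.

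Many neuronal cytoskeletal genes fell. Of 21 genes of neurite cytoskeleton and growth, 19 were tested, with a median log2 fold change of -0.12. Of these 10 fell (52.6%) and 2 rose (10.5%), against 10.6% and 10.3% of all tested genes. Tubb2b, a neuronal beta-tubulin, was at 209, 210.4 and 189.9 CPM in untransfected cells and 162, 148 and 161 CPM in HiFi-RfxCas13d NTG (log2 fold change -0.37 ± 0.037, SE, edgeR adjusted p = 2.46e-08), and tau, Mapt, was at 200, 183 and 183 CPM against 151, 145 and 149 CPM (log2 fold change -0.35 ± 0.043, SE, edgeR adjusted p = 1.06e-06). Tubb3, Uchl1 and the neurosecretory protein Vgf fell, with log2 fold changes of -0.23, -0.17 and -0.26. Vesicle and granule genes were mixed, with 3 of 19 higher (15.8%) and 4 lower (21.1%). The 5 rises on the whole neuronal list became 2 and 3 without HiFi-RfxCas13d NTG replicate 1 and untransfected replicate 3. The neuroblast markers as a list, 13 of 16 tested, summed to 5258 to 5450 CPM in untransfected cells and 5162 to 5334 CPM in HiFi-RfxCas13d NTG, and these ranges overlapped. Transcription factors that maintain neuroblastoma identity gave 2 rises and 2 falls among 16 tested (12.5% each), near the 10.3% and 10.6% of all tested genes. Tbx2 rose by 0.48 ± 0.062 and Phox2a fell, at -0.17, whereas the other rise was not called without HiFi-RfxCas13d NTG replicate 1 or untransfected replicate 1, and the other fall without HiFi-RfxCas13d NTG replicate 2 or 3 or untransfected replicate 2 or 3.

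Some genes of DNA replication and of protein folding rose slightly, beside 10.3% higher and 10.6% lower of all tested genes. Of 44 replication and G1/S genes 12 rose and 2 fell (1 without HiFi-RfxCas13d NTG replicate 1 or 3 or untransfected replicate 2 or 3), among the risers cyclin E2 (Ccne2) at 103, 113 and 113 CPM against 126, 130.4 and 136 CPM (log2 fold change 0.26 ± 0.051, SE, edgeR adjusted p = 5.49e-04). Of 25 unfolded protein response genes 9 rose and 0 fell, with Dnajc3, an inhibitor of PERK and PKR, at 0.26 ± 0.039 and the ER chaperone Hyou1 at 0.17 ± 0.021; 5 rose without untransfected replicate 1. Of 24 tested heat shock and chaperone genes 8 rose and 1 fell, with Hsph1 at 0.20, and 5 rose without HiFi-RfxCas13d NTG replicate 3 or untransfected replicate 1.

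Stress pathways gave calls in both directions, beside 10.3% higher and 10.6% lower of all tested genes. Falls on the integrated stress response (12.5%), NRF2 (8.70%) and immediate early gene (11.5%) lists were near the latter share. Of 32 tested genes of the integrated stress response 7 rose and 4 fell. Atf3, one of its transcription factors, was at 11.4, 10.0 and 8.52 CPM against 15, 14.6 and 15.3 CPM (log2 fold change 0.58 ± 0.10, SE, edgeR adjusted p = 1.14e-04), and Slc7a11, a cystine transporter, rose by 0.30, whereas the mitochondrial enzyme Pck2 fell, at -0.32. Of 23 tested p53 targets 3 rose, near the 10.3% of all tested genes, and 4 fell, against 10.6% of all. The count of falls was 2 without HiFi-RfxCas13d NTG replicate 2, untransfected replicate 1 or untransfected replicate 2. The nuclease Aen and the p53 inhibitor Mdm2 rose by 0.38 and 0.23, and the cell-cycle inhibitors Ccng2 and Btg2 fell, at -0.56 and -0.45. Of 23 tested NRF2 targets 7 rose and 2 fell, Gclm at 0.18 and Gstm1 at -0.34. Of 26 tested immediate early genes 3 fell and 7 rose, and 3 to 4 rose with any 1 of the 6 libraries left out. The zinc exporter Slc30a1 rose by 0.31 and was the one called member among 4 tested genes of metal handling.

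Of the lipid genes, the cholesterol exporter Abca1 was at 26.8, 23.6 and 22.6 CPM in untransfected cells and 46.0, 41.1 and 44.3 CPM in HiFi-RfxCas13d NTG (log2 fold change 0.84 ± 0.076, SE, edgeR adjusted p = 5.75e-09), and Mylip, which degrades the LDL receptor, rose by 0.44. Fatty acid synthase (Fasn) was at 596, 605 and 537 CPM against 695, 693 and 703 CPM (log2 fold change 0.27 ± 0.036, SE, edgeR adjusted p = 4.20e-06), and of 13 genes of fatty acid synthesis 5 rose and 1 fell, or 0 without HiFi-RfxCas13d NTG replicate 2 or untransfected replicate 1 or 2. Of 20 sterol synthesis enzymes 2 rose, near the 10.3% of all tested genes, and 5 fell, against 10.6% of all.

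Several further lists gave counts in both directions that changed when single libraries were left out, beside 10.3% higher and 10.6% lower of all tested genes. Of 56 genes of oxidative phosphorylation 5 rose and 10 fell. With 1 library left out, 3 rose without HiFi-RfxCas13d NTG replicate 1 or 2 or untransfected replicate 3, 2 without HiFi-RfxCas13d NTG replicate 3 and 1 without untransfected replicate 1, and 6 fell without HiFi-RfxCas13d NTG replicate 1 or untransfected replicate 2 and 5 without HiFi-RfxCas13d NTG replicate 3. Of 40 mitotic genes 5 rose and 2 fell; 2 rose without untransfected replicate 1 and 3 without HiFi-RfxCas13d NTG replicate 2 or untransfected replicate 3, and 1 fell without HiFi-RfxCas13d NTG replicate 1 or 2 or untransfected replicate 2 or 3. Of 46 lysosome and autophagy genes 5 rose, or 3 without HiFi-RfxCas13d NTG replicate 1, and 9 fell, among them the hydrolase Naglu at -0.47 and the autophagy kinase Ulk1 at -0.34. Of 34 tested histone genes 1 rose and 4 fell, or 7 without untransfected replicate 1, and the linker histone H1f0 was at -0.30 ± 0.023. Of 17 circadian clock genes 3 rose and 3 fell, and 1 fell without HiFi-RfxCas13d NTG replicate 2 or 3 or untransfected replicate 1 or 2. ERK feedback genes gave 2 rises and 1 fall of 13, with 2 falls without untransfected replicate 3.

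Of 24 tested apoptosis regulators 2 rose and 2 fell (8.33% each), below the 10.3% and 10.6% of all tested genes. Without HiFi-RfxCas13d NTG replicate 2, 0 fell. Without its replicate 1 or 3 or untransfected replicate 1, 1 fell, and without untransfected replicate 1, 1 rose. Bak1, a pore-forming member of the BCL2 family, was at 18.3, 21.0 and 18.4 CPM against 27.8, 26.8 and 27.6 CPM (log2 fold change 0.51 ± 0.060, SE, edgeR adjusted p = 7.92e-07). Of 14 tested NF-kB and inflammation genes 2 rose and 2 fell (14.3% each), near the shares of all tested genes. Of these genes 0 rose without HiFi-RfxCas13d NTG replicate 2 or untransfected replicate 1. Without HiFi-RfxCas13d NTG replicate 1 or untransfected replicate 2 or 3, 1 rose. Nfkb2, an NF-kB subunit, fell, at -0.39, and was called in all 14 alternatives. Tnfaip2, an NF-kB target, fell, at -0.67, with an edgeR adjusted p of 0.065 without untransfected replicate 1.

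The remaining genes of the 12 largest falls, counted among genes with a mean of at least 50 counts, carry no common label. Eml2, a microtubule-binding protein, was at 8.28, 8.57 and 7.01 CPM in untransfected cells and 2.85, 2.24 and 4.22 CPM in HiFi-RfxCas13d NTG (log2 fold change -1.37 ± 0.18, SE, edgeR adjusted p = 3.74e-06). Cd248, the sialomucin endosialin, was at 10.3, 11.2 and 10.3 CPM against 5.76, 5.37 and 4.89 CPM (log2 fold change -0.99 ± 0.12, SE, edgeR adjusted p = 1.76e-06). Igfbp2, an insulin-like growth factor binding protein, was at 7.25, 7.31 and 6.61 CPM against 3.82, 3.97 and 3.73 CPM (log2 fold change -0.88 ± 0.16, SE, edgeR adjusted p = 1.47e-04). Each of these pairs of groups was separate. Slco2b1, an organic anion transporter, Cyth4, an exchange factor of ARF GTPases, Adgra2, an adhesion GPCR, and Vmac fell, with log2 fold changes of -0.99, -0.91, -0.86 and -0.85. Selenbp1 fell, at -0.87, and its edgeR adjusted p was 0.091 without untransfected replicate 1.

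The largest fitted rise, of Npcd, is uncertain. Npcd had no count in the 3 untransfected libraries and 26.5, 30.0 and 44.8 CPM in HiFi-RfxCas13d NTG, but Nptxr, the neuronal pentraxin receptor gene, was at 89.0, 94.7 and 88.2 CPM in untransfected cells and 66.7, 63.7 and 47.8 CPM in HiFi-RfxCas13d NTG, and the sum of both genes was 89.0, 94.7 and 88.2 CPM and 93.1, 93.8 and 92.6 CPM. Npcd was also at 0 in 1 RfxCas13d NTG library and in 2 libraries of HiFi-RfxCas13d with the mATXN2-targeting crRNA. No fold is given for either gene, because reads may have been assigned to one or the other.

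Of the 16 genes that were higher in HiFi-RfxCas13d NTG than in RfxCas13d NTG, 5 averaging 50 counts or more with separate libraries are named here. Hsd17b7, an enzyme of sterol synthesis, was at 68.1, 68.4 and 68.1 CPM in HiFi-RfxCas13d NTG and 58.5, 55.8 and 57.5 CPM in RfxCas13d NTG (log2 difference 0.25 ± 0.048, SE, edgeR adjusted p = 0.00575). Bnc2, a zinc finger protein, Phlpp2, a phosphatase of AKT, Armc6 and the nicotinic receptor subunit Chrna3 were higher by 0.62, 0.31, 0.30 and 0.18. Leaving out 1 library removed the call of each of the last 4 in 5 or 6 of the 6 cases, and Hsd17b7 passed in all 6.

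Against DiCas7-11 NTG, 70 genes were higher in HiFi-RfxCas13d NTG (0.504% of those tested) and 28 lower (0.201%). Rnf157, a ubiquitin ligase, was at 11.1, 12.2 and 11.9 CPM in HiFi-RfxCas13d NTG, 20.5, 17.2 and 18.5 CPM in DiCas7-11 NTG and 17.4, 19.4 and 16.8 CPM in untransfected cells (log2 difference between the NTG arms -0.66 ± 0.084, SE, edgeR adjusted p = 2.18e-05). Sapcd1 was at 2.72, 2.35 and 2.75 CPM and 5.04, 4.94 and 4.04 CPM (log2 difference -0.84 ± 0.17, SE, edgeR adjusted p = 0.00700). In both genes DiCas7-11 NTG overlapped the untransfected libraries and HiFi-RfxCas13d NTG lay below both. Nudt13, Nrm and the apoptosis inhibitor Faim were lower, with log2 differences of -0.51, -0.38 and -0.32, and were not called under 5, 6 and 4 of 13 alternatives. Nupr1, a stress-induced chromatin protein, was at 18.8, 19.4 and 18.2 CPM against 13.2, 15.2 and 12.8 CPM (log2 difference 0.45 ± 0.094, SE, edgeR adjusted p = 0.0125). Klf5, Trim66, Dysf and Icam2 were higher by 0.38, 0.38, 0.36 and 0.36, and were not called under 6, 4, 3 and 4 of 13 alternatives. Without single libraries Sapcd1 was not called in 1 case (HiFi-RfxCas13d NTG replicate 2) and Nupr1 in 2 (HiFi-RfxCas13d NTG replicate 2 and DiCas7-11 NTG replicate 3), and Rnf157 was called in all 13. The DiCas7-11 NTG libraries varied more than those of both groups of the main comparison, with 3.20 to 5.30 times the counting noise between pairs against 1.73 to 2.35 times. The total of 98 was 259 without DiCas7-11 NTG replicate 1, 62 without its replicate 3, 59 and 61 without HiFi-RfxCas13d NTG replicates 1 and 2, and 13 when only the 6 libraries compared were fitted.

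Other cell types were checked by their markers. Endothelial markers, 4 of 9 tested, and astrocyte and oligodendrocyte markers, 2 of 11 tested, gave 0 calls. The endothelial marker Pecam1, at -0.34, was called lower in 1 of 14 alternatives. Summed levels of the 2 lists were 15.5 to 17.6 CPM and 15.9 to 19.2 CPM in untransfected cells. In HiFi-RfxCas13d NTG they were 14.7 to 15 CPM and 16.6 to 17.4 CPM. Of the defining genes, Cdh5, Kdr, Aqp4, Mog and Olig2 had no count in the 6 libraries, and Krt8 was the one epithelial marker of 8 that was tested, without a call. Of the neuroblast markers Tubb3 and Uchl1 fell, and Chga was at 0.11, a rise that was not called without HiFi-RfxCas13d NTG replicate 1 or 3 or untransfected replicate 2 or 3.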

How the data were processed

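RNA was sequenced from 24 Neuro2A cultures in 8 groups of 3. The authors quantified reads with Salmon 1.5.2, summarised them to genes with tximport, and deposited expected counts (estimated counts scaled for transcript length, not for library size); the submitters' processing notes name R 4.2.2 and build GRCm39. A list of genes the authors kept (12874) was not used as a filter, and columns with no assigned sample numbered 0. The series labels say the replicates of a group are independent.

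Expected counts were rounded and fitted with edgeR 4.0.16 (quasi-likelihood test, TMM, group means of all 24 libraries). Genes needed 0.5 CPM in at least 3 libraries, which left 13901 of 39253, and p-values were Benjamini-Hochberg adjusted within each comparison at 0.05. CPM are per TMM-scaled library size. Ratios of single genes cover counting error only, with exact 95% intervals. Where a group had no count, a ratio over an assumed 3 counts in that group is given as well, which carries no interval.

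Members and gene lists were chosen with earlier results of these data known, and the actin and BMP lists after the values were seen. Named genes are Atxn2, the 12 largest rises and falls of called genes averaging 50 counts or more whose groups were separate (predicted genes left out), up to 4 called members per list, and up to 5 differences each way to each other NTG arm; other members named were chosen after their values were seen. Promoters are the RefSeq windows of GRCm38.p6, found by gene ID. Alternatives were DESeq2 1.42.0, limma-trend 3.58.1 with a prior count of 3, DESeq2-type size factors, all genes with a nonzero count, only the compared libraries, a transcript length correction, the replicate number as a block, and each library left out. Some items are not reported here.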

Additional observations from a re-analysis of the deposited data

Results flagged for a closer look

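Each of the following 20 genes was tested directly between 2 NTG arms, without the untransfected libraries, and its difference passed edgeR's adjusted threshold in that test. The values are log2 differences of HiFi-RfxCas13d NTG minus the other arm. Against RfxCas13d NTG the genes lower in HiFi-RfxCas13d NTG were Usp18 (-1.92), Oas1a (-1.77), Xaf1 (-1.30), Igtp (-1.29) and Irgm2 (-1.07), all 5 of them interferon-induced genes. The genes higher in HiFi-RfxCas13d NTG were Bnc2 (0.62), Phlpp2 (0.31), Armc6 (0.30), Hsd17b7 (0.25) and Chrna3 (0.18). Against DiCas7-11 NTG the genes lower in HiFi-RfxCas13d NTG were Sapcd1 (-0.84), Rnf157 (-0.66), Nudt13 (-0.51), Nrm (-0.38) and Faim (-0.32). The genes higher in HiFi-RfxCas13d NTG were Nupr1 (0.45), Klf5 (0.38), Trim66 (0.38), Dysf (0.36) and Icam2 (0.36). These are the largest differences in each direction among genes averaging 50 counts or more whose libraries were separate, so their size is in part a matter of their choice.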

How the results depend on the processing

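The counts of genes higher and lower than in untransfected cells were 1084 to 1595 and 1089 to 1582 over 14 alternatives, each within 1.5 times of 1437 and 1475; with 1 library left out they were 1084 to 1313 and 1089 to 1250. Among the genes named by the rule, for which alternatives are given, no called gene reversed its direction. Other members named in the text are not covered. Krt8 and Vwf, which did not pass, changed sign to -0.027 without untransfected replicate 3 and to -0.062 without HiFi-RfxCas13d NTG replicate 2. Of the values recomputed for named genes 1931 stayed on their side of the threshold, 222 lost and 1 gained a call. The 86 genes that differ from RfxCas13d NTG were 254 when every gene with a nonzero count was tested, and 34 to 85 with 1 library left out. The 98 that differ from DiCas7-11 NTG were 280 with every nonzero gene, 13 with only the 6 libraries compared, and 59 to 259 with 1 library left out; the cause of these shifts was not tested. The replicate number as a block gave 1566 higher and 1582 lower genes to untransfected cells, 161 differences to RfxCas13d NTG and 186 to DiCas7-11 NTG, or 153 and 191 with the length correction and the block. Deviations of same-numbered libraries from their group means correlated at 0.113, 0.105 and 0.0075 between HiFi-RfxCas13d NTG and untransfected cells, at -0.038, -0.025 and -0.089 to RfxCas13d NTG and at 0.172, -0.087 and -0.076 to DiCas7-11 NTG over 10837 genes, and not every sample correlated best with its own number, so the numbers were not used as pairs. Genes with few counts in untransfected cells, such as Ifit1 with 4, have wide counting intervals.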
